A study of Mus musculus with 12 samples.

Results

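The CD103 integrin, activin and TGF-beta system was followed through 10 genes across 12 RNA sequencing libraries of the dendritic cell (DC) line Sp37A3, a line established from mouse spleen. The count table holds 55401 genes in all. Itgae and Inhba were chosen because their counts were far lower in the EKO-labelled cells, so the difference between the lines in these 2 genes is given as a description without a test. Itgb7, Itgb8, Tgfb1, Tgfbr1, Tgfbr2, Smad3, Smad7 and Runx3 were listed for their function, with earlier results of these data known. Of the 10 genes, 9 passed the filter of the fit, which asked for a positive log2 CPM in 2 or more libraries (CPM, normalized counts scaled by library depth), and Smad3 did not.

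Each of 4 groups held 3 libraries. CtrV cells carry the empty lentiviral CRISPR vector and are labelled as expressing Siglec-E, an inhibitory receptor for sialic acids. EKO cells were transduced with the same kind of vector with a guide against Siglece, and the line is a pool of several clones selected for low Siglec-E, so an effect of the guide and an effect of the selection of clones cannot be told apart. All cells grew in medium with GM-CSF and M-CSF and were stimulated with LPS for 24 h. Those labelled OVA were first pulsed with ovalbumin at 0.1 mg/ml for 2 h and then received LPS at 0.1 µg/ml, and those labelled unpulsed received no ovalbumin. The labels number replicates 1 to 3 in each group and do not say that these were separate cultures, so p-values measure only the spread between libraries, which may be technical.

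Library totals lay between 27116201 and 39698572 counts, so a floor of 3 counts equalled 0.0785 to 0.110 CPM. Siglece, the targeted gene, had 150.2 to 163 CPM in CtrV libraries and was not lower in those labelled EKO, at 166 to 235 CPM. It was called higher there, by a log2 fold change of 0.41 (edgeR adjusted p = 0.0026) unpulsed and 0.31 (edgeR adjusted p = 0.011) after OVA. The count covers the whole gene, so it does not test whether a protein is made. The 7 DC marker genes summed to 23790 to 25850 CPM in CtrV against 23910 to 26080 CPM in EKO-labelled libraries. Most of that sum was Cd74, at 16154 to 18270 and 13959 to 16484 CPM, and its members went both ways. H2-Ab1 and H2-Aa were higher in EKO-labelled cells in both treatments (log2 fold changes of 0.49 to 0.55), Ciita and Itgax were lower (-0.50 to -0.18), Flt3 was called after OVA at 1.74 and not unpulsed at 0.92 (edgeR adjusted p = 0.10), and Cd74 and Zbtb46 were not called. Of the 5 T cell genes Cd3e and Cd3g had no count, Cd3d had 1 count in all CtrV and 3 in all EKO-labelled libraries, Cd8b1 had 1 and 18, and Lck had 516 and 517, at 1.61 to 3.57 CPM over both lines without a call. The 5 mast cell genes found in the table had no count. The lines separated on the first principal component (83.8% of the variance), and replicate 1 of the EKO-labelled cells stood apart on the next one (7.11%), at 18.8 and 20.5 against -18.3 to -1.15 in the other EKO-labelled libraries.

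CD103, the product of Itgae, pairs with the beta 7 chain from Itgb7 to form an integrin that binds E-cadherin and holds leukocytes at epithelia. It marks a population of DCs in gut, lung and skin, and TGF-beta is known to induce it in T cells. TGF-beta is secreted in a latent form that the integrin of alpha v and beta 8 can release, and activin A, a dimer of the Inhba product, belongs to the same ligand family. TGF-beta and activin bind paired type I and type II receptors, which phosphorylate SMAD2 and SMAD3. Smad7 encodes an inhibitor of this signal, and Runx3 a transcription factor that works with SMADs.

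The RefSeq promoter table (build GRCm38.p6) held 8 of the 10 genes, without Itgae and Smad7. The 250 bases before the start are shown for Inhba, the ligand gene that was nearly silent in 1 line, for Tgfbr2, the receptor gene that was higher there, and for Runx3, whose counts differed little. The windows are chr13:16011601-16011850 on the plus strand for Inhba, chr9:116175364-116175613 on the minus strand for Tgfbr2 and chr4:135120395-135120644 on the plus strand for Runx3, each read 5′ to 3′ along the gene's strand. Capitals mark matches on either strand to the RUNX core TGTGGT or to the SMAD-binding core CAGAC.
Inhba: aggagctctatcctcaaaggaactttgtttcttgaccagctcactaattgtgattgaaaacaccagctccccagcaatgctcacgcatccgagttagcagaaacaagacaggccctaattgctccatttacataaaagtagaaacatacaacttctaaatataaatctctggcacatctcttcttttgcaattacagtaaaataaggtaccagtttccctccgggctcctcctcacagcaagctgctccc
Tgfbr2: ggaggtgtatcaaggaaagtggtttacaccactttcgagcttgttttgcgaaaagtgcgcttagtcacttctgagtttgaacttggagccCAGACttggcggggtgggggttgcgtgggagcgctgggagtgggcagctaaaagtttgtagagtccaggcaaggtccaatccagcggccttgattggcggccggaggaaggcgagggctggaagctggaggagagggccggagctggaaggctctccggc
Runx3: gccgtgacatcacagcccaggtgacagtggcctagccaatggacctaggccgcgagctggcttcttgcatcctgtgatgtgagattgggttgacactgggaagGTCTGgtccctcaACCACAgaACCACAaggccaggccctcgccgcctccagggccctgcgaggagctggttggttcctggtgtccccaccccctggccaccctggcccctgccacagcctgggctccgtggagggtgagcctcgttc
The Tgfbr2 window held 1 CAGAC, 160 bases before the start. The upstream start of Runx3 was preceded by 2 matches to TGTGGT, at 134 and 126 bases on the opposite strand, and by 1 match to CAGAC at 147 bases. The Inhba window held neither core, nor the AP-1 letters TGACTCA or the CRE letters TGACGTCA, which were also absent from the other windows shown. Of 32851 windows of this length, 14% held TGTGGT, 42.2% CAGAC, 4.46% TGACTCA and 1.55% TGACGTCA. A match of letters is a description of the window and not a binding site.

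Itgae (ENSMUSG00000005947, chromosome 11 from 73090583 to 73147446, plus strand, GRCm38) encodes CD103, an integrin alpha chain. Its counts were 86.9, 81.6 and 87.9 CPM in unpulsed CtrV libraries and 77.7, 84.9 and 108 CPM in OVA-pulsed CtrV libraries. In EKO-labelled libraries they were 1.61, 1.55 and 1.71 CPM unpulsed and 1.46, 1.19 and 1.54 CPM after OVA. The lines did not overlap, and every EKO-labelled library still held 37 to 56 Itgae reads, above the floor of 3. The fitted log2 fold change of EKO-labelled over CtrV cells was -5.72 (SE 0.11) in unpulsed and -5.99 (SE 0.11) in OVA-pulsed cells, which equals 52.7-fold and 63.7-fold lower. These values chose the gene. In bulk libraries, fewer cells with the transcript and less of it per cell cannot be told apart.

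Itgb7 (ENSMUSG00000001281, chromosome 15 from 102215995 to 102231944, minus strand), which encodes the partner chain of CD103, showed no such difference. It had 31.7, 28.7 and 30.7 CPM in unpulsed CtrV and 32.9, 29.9 and 32.9 CPM in unpulsed EKO-labelled libraries. After OVA it had 23.6, 30.8 and 32.8 CPM in CtrV against 26.5, 36.5 and 32.4 CPM in EKO-labelled libraries. The groups overlapped in both treatments. The log2 fold change was 0.07 (95% interval -0.19 to 0.33, edgeR adjusted p = 0.65) unpulsed and 0.13 (-0.13 to 0.39, edgeR adjusted p = 0.38) after OVA. Neither difference passed the test, and the intervals leave room for modest changes in either direction.

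Itgb8 (ENSMUSG00000025321, chromosome 12 from 119158022 to 119238802, minus strand) encodes the chain that joins alpha v in the integrin that releases active TGF-beta. CtrV libraries held 0.881, 1.07 and 1.07 CPM unpulsed and 2.13, 0.695 and 0.763 CPM after OVA. Of these 6 libraries, 3 reached the filter limit. EKO-labelled libraries held 21.2, 13.2 and 8.26 CPM unpulsed and 34.4, 13.1 and 15.3 CPM after OVA. The lowest EKO-labelled library exceeded the highest CtrV library, and replicate 1 was the highest of the EKO-labelled libraries in each treatment. Itgb8 was higher in EKO-labelled cells by a log2 fold change of 3.78 (SE 0.29, edgeR adjusted p = 2.5e-06), or 13.7-fold, unpulsed. After OVA the value was 4.11 (SE 0.26, edgeR adjusted p = 6.3e-07), or 17.2-fold. Without replicate 1, the mean of the EKO-labelled libraries was 10.7 CPM unpulsed and 14.2 CPM after OVA, against 14.2 and 20.9 CPM with it.

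Thus the 3 integrin chains took 3 courses: the alpha chain of CD103 was nearly silent in EKO-labelled cells, its beta chain did not pass the test, and the beta 8 chain was high. Other cell type markers also differed in level between the lines. The 5 macrophage genes summed to 1303 to 1490 CPM in CtrV against 1691 to 1842 CPM in EKO-labelled libraries, and the 6 genes of CD103+ cDC1 (conventional type 1 DCs) to 130.1 to 173.5 and 252.3 to 341.9 CPM. Of the latter list, Cadm1 had no count and Clec9a 3 counts over all libraries. The 4 B cell genes summed to at most 0.282 CPM in CtrV against 1.07 CPM in EKO-labelled libraries. The part of these markers in the results was not tested.

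**Figure D1:**
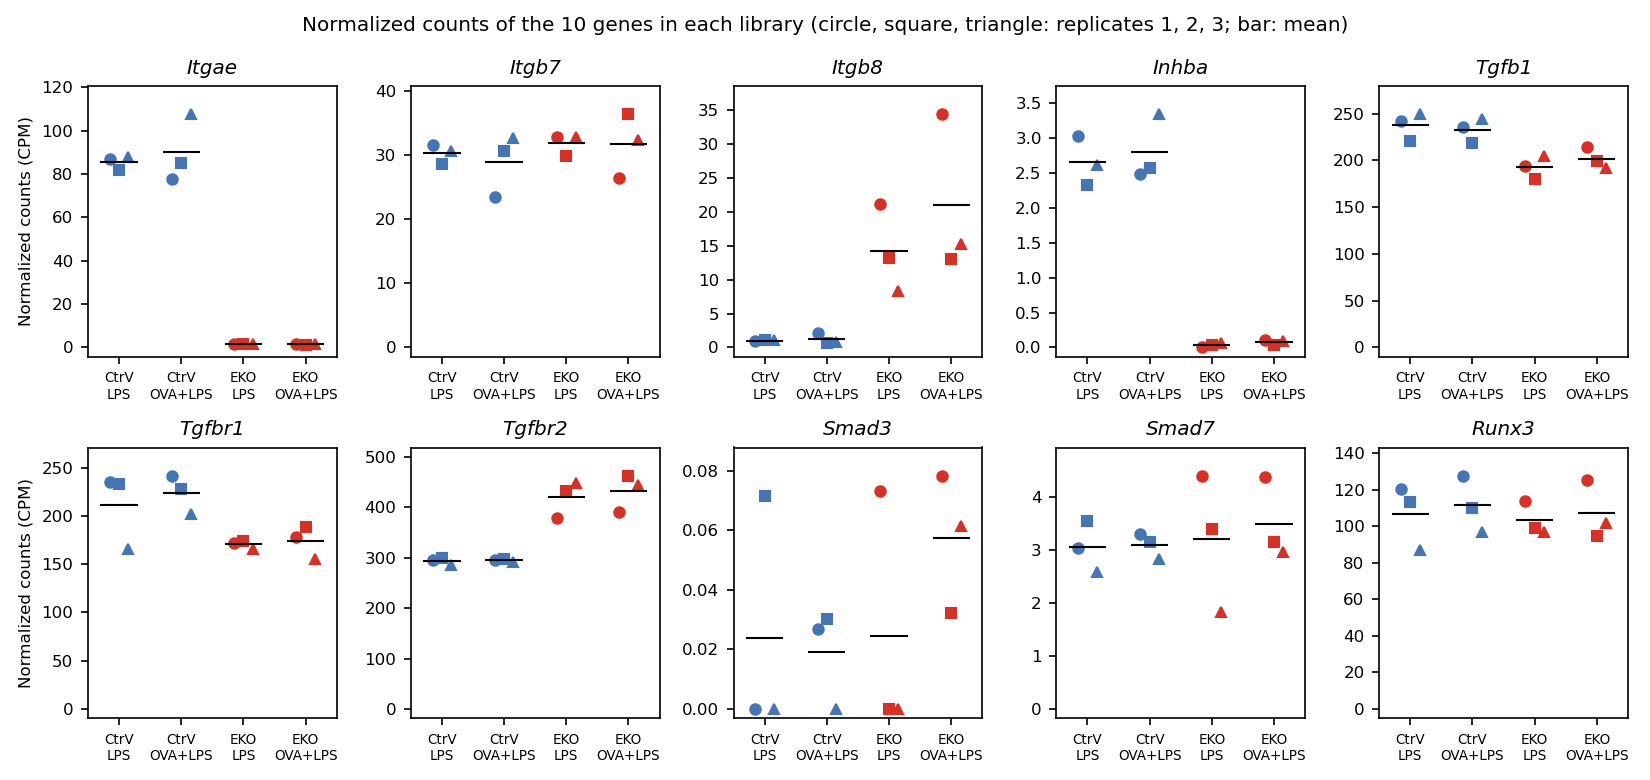
Normalized counts (CPM, linear axes from 0) of the 10 genes in each library, by group. Circles, squares and triangles are replicates 1, 2 and 3, blue is CtrV, red is EKO-labelled, and bars are means of 3. Itgae lay at 77.7 to 108 CPM in CtrV against 1.19 to 1.71 CPM in EKO-labelled libraries, Itgb8 the other way, and Smad3 never exceeded 3 counts.

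Inhba (ENSMUSG00000041324, chromosome 13 from 16011851 to 16031621, plus strand) encodes the beta A chain of activin A. Its level was low in CtrV cells, at 3.03, 2.33 and 2.61 CPM unpulsed and 2.49, 2.57 and 3.35 CPM after OVA. The EKO-labelled libraries held 0, 1 and 2 reads unpulsed and 4, 1 and 3 reads after OVA. This gives summed counts of 227 against 3 in unpulsed cells, a ratio of 79.98 per library depth (95% interval 27.02 to 391). In OVA-pulsed cells 278 against 8 counts gave a ratio of 35.3 (17.7 to 82.6). The intervals cover counting error only, the unpulsed ratio rests on 3 reads, and both ratios describe a gene that was chosen for this difference.

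Tgfb1 (ENSMUSG00000002603, chromosome 7 from 25687002 to 25705077, plus strand) encodes a TGF-beta ligand and was slightly lower in EKO-labelled cells. CtrV libraries had 242, 220.2 and 249.5 CPM unpulsed and 236, 218 and 244 CPM after OVA. EKO-labelled libraries had 194, 179.9 and 205 CPM unpulsed and 214, 199.5 and 192 CPM after OVA. The groups did not overlap in either treatment. The log2 fold change was -0.30 (SE 0.06, edgeR adjusted p = 0.0016) unpulsed and -0.20 (SE 0.06, edgeR adjusted p = 0.013) after OVA. The call in OVA-pulsed cells was lost without replicate 3 of the OVA-pulsed CtrV libraries (log2 fold change -0.18, edgeR adjusted p = 0.062) or of the OVA-pulsed EKO-labelled libraries (-0.13, edgeR adjusted p = 0.071).

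The type I and type II receptors of TGF-beta moved in opposite directions. Tgfbr2 (ENSMUSG00000032440, chromosome 9 from 116084293 to 116175360, minus strand), the type II receptor that binds the ligand first, had 296, 299.96 and 286 CPM in unpulsed CtrV and 379, 432 and 448 CPM in unpulsed EKO-labelled libraries. After OVA it had 296, 298 and 291 CPM in CtrV against 389.9, 463 and 443 CPM in EKO-labelled libraries. The groups did not overlap, and replicate 1 was the lowest of the EKO-labelled libraries in each treatment. Tgfbr2 was higher by a log2 fold change of 0.51 (SE 0.06, edgeR adjusted p = 1e-04) unpulsed and 0.55 (SE 0.06, edgeR adjusted p = 5.9e-05) after OVA, or 1.43-fold and 1.46-fold.

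Tgfbr1 (ENSMUSG00000007613, chromosome 4 from 47353222 to 47414931, plus strand) encodes the type I receptor, the kinase that phosphorylates SMAD2 and SMAD3. It had 242, 228 and 202 CPM in OVA-pulsed CtrV and 178, 188 and 156 CPM in OVA-pulsed EKO-labelled libraries, which did not overlap. There it was lower by a log2 fold change of -0.36 (SE 0.08, edgeR adjusted p = 0.0034). Unpulsed CtrV libraries had 235, 233 and 165 CPM and EKO-labelled ones 172, 174 and 166 CPM, so replicate 3 of CtrV fell below all EKO-labelled libraries. The unpulsed log2 fold change was -0.29 (SE 0.08, edgeR adjusted p = 0.012). This call was lost without the replicate block (-0.31, edgeR adjusted p = 0.071), with the unpulsed groups alone (-0.30, edgeR adjusted p = 0.062) and without replicate 1 of the EKO-labelled cells in both treatments (-0.23, edgeR adjusted p = 0.063). It was also lost when replicate 1 or 2 of the unpulsed CtrV libraries (edgeR adjusted p = 0.057 and 0.055) or replicate 1 or 2 of the unpulsed EKO-labelled libraries (0.051 and 0.061) was left out.

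Of Smad3, Smad7 and Runx3, whose products act inside the cell, Smad3 was not tested and the others did not pass the test between the lines. Smad3 (ENSMUSG00000032402, chromosome 9 from 63646767 to 63757994, minus strand), a transducer of TGF-beta and activin signals, held 0, 2 and 0 reads in unpulsed CtrV, 1, 1 and 0 in OVA-pulsed CtrV, 2, 0 and 0 in unpulsed EKO-labelled and 3, 1 and 2 in OVA-pulsed EKO-labelled libraries. Every library was at or under the floor of 3 counts, so a difference was not detectable at this depth. Smad7 (ENSMUSG00000025880, chromosome 18 from 75367529 to 75395935, plus strand), the inhibitory SMAD, ranged from 2.58 to 3.54 CPM in CtrV against from 1.84 to 4.4 CPM in EKO-labelled libraries, which overlapped. Its log2 fold change was 0.04 (95% interval -0.39 to 0.47, edgeR adjusted p = 0.89) unpulsed and 0.18 (-0.23 to 0.59, edgeR adjusted p = 0.45) after OVA. Runx3 (ENSMUSG00000070691, chromosome 4 from 135120652 to 135177990, plus strand) ranged from 86.7 to 128 CPM in CtrV against from 94.5 to 125 CPM in EKO-labelled libraries, which also overlapped. Its log2 fold change was -0.04 (-0.22 to 0.13, edgeR adjusted p = 0.70) unpulsed and -0.05 (-0.23 to 0.12, edgeR adjusted p = 0.59) after OVA.

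Of the 7 genes in the fit that were not chosen by their line difference, Itgb8 and Tgfbr2 were called higher in EKO-labelled cells, Tgfb1 and Tgfbr1 were called lower and 3 were not called, with and without OVA. Over all 14079 genes tested, 47% were called in OVA-pulsed cells (25.1% higher and 21.9% lower) and 46.4% in unpulsed cells (24.5% higher and 21.9% lower). With 4 of 7 called in each treatment, the genes were near that background. Among them the groups did not overlap for 4 genes in OVA-pulsed cells and 3 in unpulsed cells, against 52.9% and 47.1% of all genes tested. Inhba passed the filter only through the line in which it was high.

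**Figure D2:**
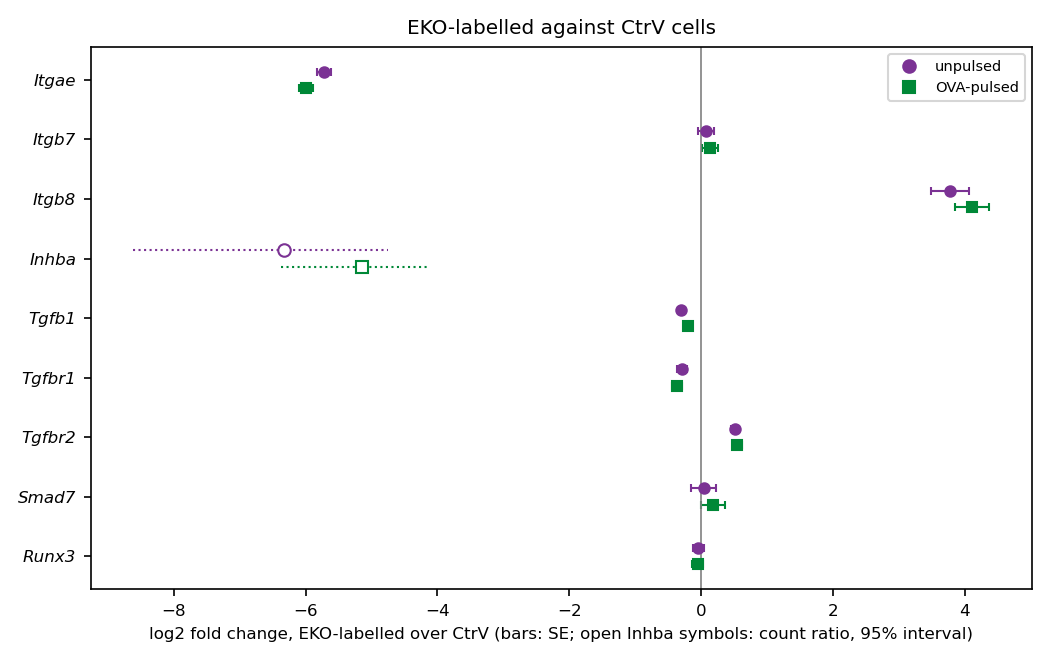
Log2 fold change of EKO-labelled over CtrV cells for the 9 genes in the fit, circles unpulsed and squares OVA-pulsed, with SE bars. Open Inhba symbols are log2 ratios of summed counts per library depth with 95% counting intervals. Itgb8 lay at 3.78 and 4.11 and Itgae at -5.72 and -5.99, while Itgb7, Smad7 and Runx3 lay within 0.18 of 0.

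No gene passed the threshold for an effect of OVA pulsing. In CtrV cells, in EKO-labelled cells and in the test of whether the line difference depended on pulsing, 0% of the 14079 genes were called by edgeR, limma voom or DESeq2. At an unadjusted p under 0.05, edgeR listed 231 genes (1.64%) in CtrV cells, 394 (2.80%) in EKO-labelled cells and 269 (1.91%) for the dependence. In the same order limma voom listed 246, 423 and 297 genes and DESeq2 44, 156 and 103. Itgb8 in EKO-labelled cells was the only member below that limit, with a log2 fold change of 0.53 (SE 0.19, unadjusted p = 0.0197 and adjusted p = 1 by edgeR), higher after OVA in replicates 1 and 3 and nearly equal in replicate 2.

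None of the other genes passed for an OVA effect. Itgae had a log2 fold change of 0.06 (SE 0.07) in CtrV and -0.21 (SE 0.16, unadjusted p = 0.234 by edgeR) in EKO-labelled cells. Tgfb1 had -0.03 (SE 0.06) and 0.07 (SE 0.06), Tgfbr1 0.10 (SE 0.08) and 0.02 (SE 0.08), and Tgfbr2 0.00 (SE 0.06) and 0.04 (SE 0.06). Itgb7 had -0.08 (SE 0.12) and -0.01 (SE 0.12), Smad7 0.01 (SE 0.19) and 0.15 (SE 0.19), and Runx3 0.07 (SE 0.08) and 0.05 (SE 0.08). For Inhba in EKO-labelled cells, 3 counts unpulsed against 8 after OVA are too few to give a change. The dependence of the line effect on pulsing was -0.27 (SE 0.18) for Itgae, 0.33 (SE 0.45) for Itgb8 and 0.10 (SE 0.08) for Tgfb1, and every gene in the fit had an edgeR adjusted p of 1.

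**Figure D3:**
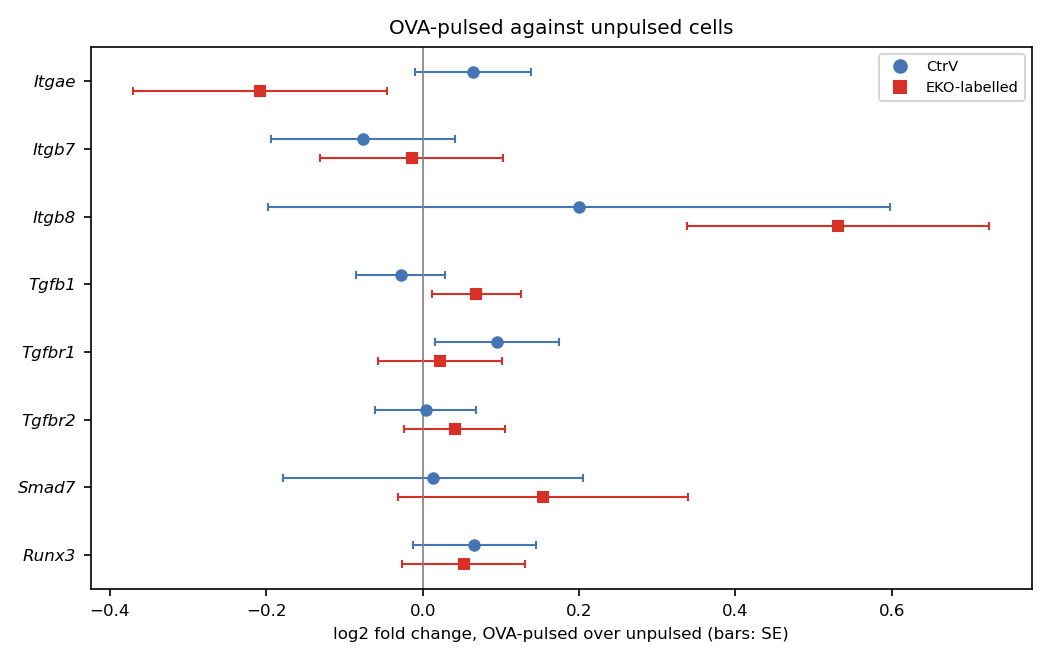
Log2 fold change of OVA-pulsed over unpulsed cells for the genes in the fit except Inhba, circles CtrV and squares EKO-labelled, with SE bars. Itgb8 in EKO-labelled cells lay farthest from 0, at 0.53, and no gene passed the adjusted threshold.

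The order of levels was read on CPM per kilobase of exon, so that genes of different length could be compared. In CtrV cells the mean of 6 libraries was 46.6 for Tgfb1, 35.9 for Tgfbr2, 33.3 for Tgfbr1, 21.8 for Runx3, 19.2 for Itgae and 10.7 for Itgb7. Below these were Smad7 at 0.679, Inhba at 0.427, Itgb8 at 0.0996 and Smad3 at 0.00387. Ranges over libraries overlapped between Tgfbr2 and Tgfbr1, between Tgfbr1 and Runx3 and between Runx3 and Itgae, and the other neighbours did not overlap. In EKO-labelled cells Tgfbr2 came first at 52.0, followed by Tgfb1 at 39.2, Tgfbr1 at 26.4, Runx3 at 21.0, Itgb7 at 11.5, Itgb8 at 1.59, Smad7 at 0.741, Itgae at 0.330, Inhba at 0.00843 and Smad3 at 0.00738. There Tgfbr1 overlapped Runx3, Itgb8 overlapped Smad7 and Inhba overlapped Smad3, and the other neighbours did not overlap. Itgae thus exceeded its partner Itgb7 per length in CtrV cells and lay far below it in EKO-labelled cells.

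The other genes of these pathways were listed by function, 89 in all, and 45 passed the filter. Higher and lower are used for an edgeR adjusted p under 0.05. With OVA, EKO-labelled cells had 20 of them higher, 6 lower and 19 not called, with a median log2 fold change of 0.16. Without OVA 20 were higher, 8 lower and 17 not called, with a median of 0.18. The median over all genes tested was 0.00 in each. The called share was 57.8% after OVA (44.4% higher and 13.3% lower) and 62.2% unpulsed (44.4% higher and 17.8% lower), beside 47% and 46.4% of all genes tested, of which 25.1% and 24.5% were higher and 21.9% lower in each treatment. The same background holds for the counts of every list given here, the genes induced by TGF-beta included, and nothing particular to a list is read from them. In the lists, 44 genes did not pass the filter, among them all 8 ligand inhibitors. Fst, which encodes the activin-binding follistatin, had no count in any library.

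Among the integrin partners and ligands, 5 of 9 passed the filter, and 3 were higher and 1 lower in each treatment. Cdh1, which encodes E-cadherin, the ligand of CD103, was lower in the same cells that had little Itgae: it had 618, 568 and 551 CPM in unpulsed CtrV and 173, 156 and 182 CPM in unpulsed EKO-labelled libraries. After OVA the values were 562, 582 and 636 CPM against 164, 152 and 161 CPM. Its log2 fold change was -1.77 (SE 0.07, edgeR adjusted p = 3.2e-08) unpulsed and -1.90 (SE 0.07, edgeR adjusted p = 1.7e-08) after OVA. Itga4, which encodes another partner of the beta 7 chain, was higher by 1.62 (SE 0.25) and 1.79 (SE 0.24). Itgav, the partner of Itgb8, was higher by 0.39 (SE 0.10, edgeR adjusted p = 0.0075) and 0.36 (SE 0.10, edgeR adjusted p = 0.010), with groups that overlapped. Itgb1, a shared beta chain, was higher by 0.42 (SE 0.08) and 0.54 (SE 0.08).

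In the list of TGF-beta ligands and latency genes, 4 of 11 passed, 2 higher and 2 lower in each treatment. Tgfb3, which encodes a further TGF-beta ligand, had 151, 162 and 168 CPM in unpulsed CtrV and 378, 363 and 356 CPM in unpulsed EKO-labelled libraries. It was higher by 1.19 (SE 0.06, edgeR adjusted p = 1.5e-07) unpulsed and 1.25 (SE 0.06, edgeR adjusted p = 1.1e-07) after OVA, while Tgfb1 was slightly lower. Of its exon bases 12.4% also lie in genes of the opposite strand, and the sources used here do not say whether reads were counted by strand. Furin, a protease that cuts TGF-beta precursors, was higher by 1.66 (SE 0.07) and 1.77 (SE 0.07). Ltbp3, which tethers latent TGF-beta, had 2.51 to 3.62 CPM in CtrV against 0.581 to 1.31 CPM in EKO-labelled libraries, of which 2 of 6 reached the filter limit. Its fitted log2 fold change was -2.06 (SE 0.20) unpulsed and -1.80 (SE 0.19) after OVA. Nrros, the other lower gene of this list, had 199 to 219 CPM in CtrV against 143 to 208 CPM in EKO-labelled libraries. It was lower by a log2 fold change of -0.39 (edgeR adjusted p = 0.0089) unpulsed. After OVA the value was -0.28 (edgeR adjusted p = 0.043), with groups that overlapped.

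Of 14 activin and BMP ligand genes only Gdf15, a stress-induced member of the family, passed the filter, and it passed only through the EKO-labelled line, since 0 of 6 CtrV libraries reached the limit. It had 0.251 to 0.703 CPM in CtrV against 1.25 to 2.05 CPM in EKO-labelled libraries, which is given as a description although it counts among the higher genes above. Among 11 further receptor genes 7 passed, with 3 higher and 1 lower in each treatment. The activin receptors Acvr2a and Acvr1b were higher, Acvr2a by 1.21 (SE 0.11) unpulsed and 1.23 (SE 0.11) after OVA and Acvr1b by 0.27 (SE 0.05) and 0.38 (SE 0.05). Acvr2b, the other type II activin receptor, was not called, at 0.18 (SE 0.16, edgeR adjusted p = 0.40) and 0.24 (SE 0.16, edgeR adjusted p = 0.23). Acvrl1, a type I receptor of low level, had 0.344 to 1.19 CPM in CtrV, where 2 of 6 libraries reached the filter limit, against 1.19 to 2.53 CPM in EKO-labelled libraries, with fitted log2 fold changes of 1.39 (SE 0.30) and 0.87 (SE 0.27). The BMP receptor Bmpr1a was lower by a log2 fold change of -0.88 (SE 0.06) and -0.99 (SE 0.06). Acvr2a, which receives activin, was higher in the line in which Inhba was nearly silent.

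Among 6 further SMAD genes 4 passed, and Smad1 and Smad2 were higher. Smad1 was higher by 0.28 (SE 0.07) in each treatment, and Smad2, the receptor SMAD that was well covered where Smad3 was not, by 0.18 (SE 0.05) unpulsed and 0.17 (SE 0.05) after OVA. Smad4, the common partner, was not called, at 0.03 (95% interval -0.08 to 0.14, edgeR adjusted p = 0.62) and -0.00 (-0.11 to 0.11, edgeR adjusted p = 0.99). Of 15 SMAD regulators 13 passed, with 4 higher and 0 lower after OVA and 5 higher and 1 lower unpulsed. Skil, which encodes a SMAD co-repressor that TGF-beta induces, was higher by 1.27 (SE 0.09) and 1.25 (SE 0.09). The repressor Tgif1 was higher by 0.28 (SE 0.06) and 0.20 (SE 0.06), and the deubiquitinase Usp15 by 0.21 (SE 0.04) and 0.20 (SE 0.04).

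Of 16 genes known to be induced by TGF-beta, 12 passed the filter, with 6 higher in each treatment and 2 lower after OVA and 3 lower unpulsed. Cdkn2b, a cell cycle inhibitor, was higher by 1.99 (SE 0.26) unpulsed and 2.22 (SE 0.25) after OVA. Id3, an inhibitor of helix-loop-helix factors that BMP signals also induce, was higher by 1.33 (SE 0.20) and 1.27 (SE 0.20). Chosen after their values were seen, the lower genes Klf10 (-0.77, SE 0.11 and -0.98, SE 0.11) and Id2 (-0.75, SE 0.06 and -0.82, SE 0.06) are given beside them, so the list did not move in 1 direction. Of the Runx factors and their cofactor, Runx2 was higher by 2.56 (SE 0.14, edgeR adjusted p = 2.6e-07) and 2.81 (SE 0.14, edgeR adjusted p = 1.1e-07), from 4.09 to 5.70 CPM in CtrV to 24.5 to 39.96 CPM in EKO-labelled libraries. Runx1 and Cbfb were not called, with log2 fold changes of -0.14 (SE 0.08) and -0.13 (SE 0.09) unpulsed and -0.09 (SE 0.08) and -0.17 (SE 0.09) after OVA.

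**Figure D4:**
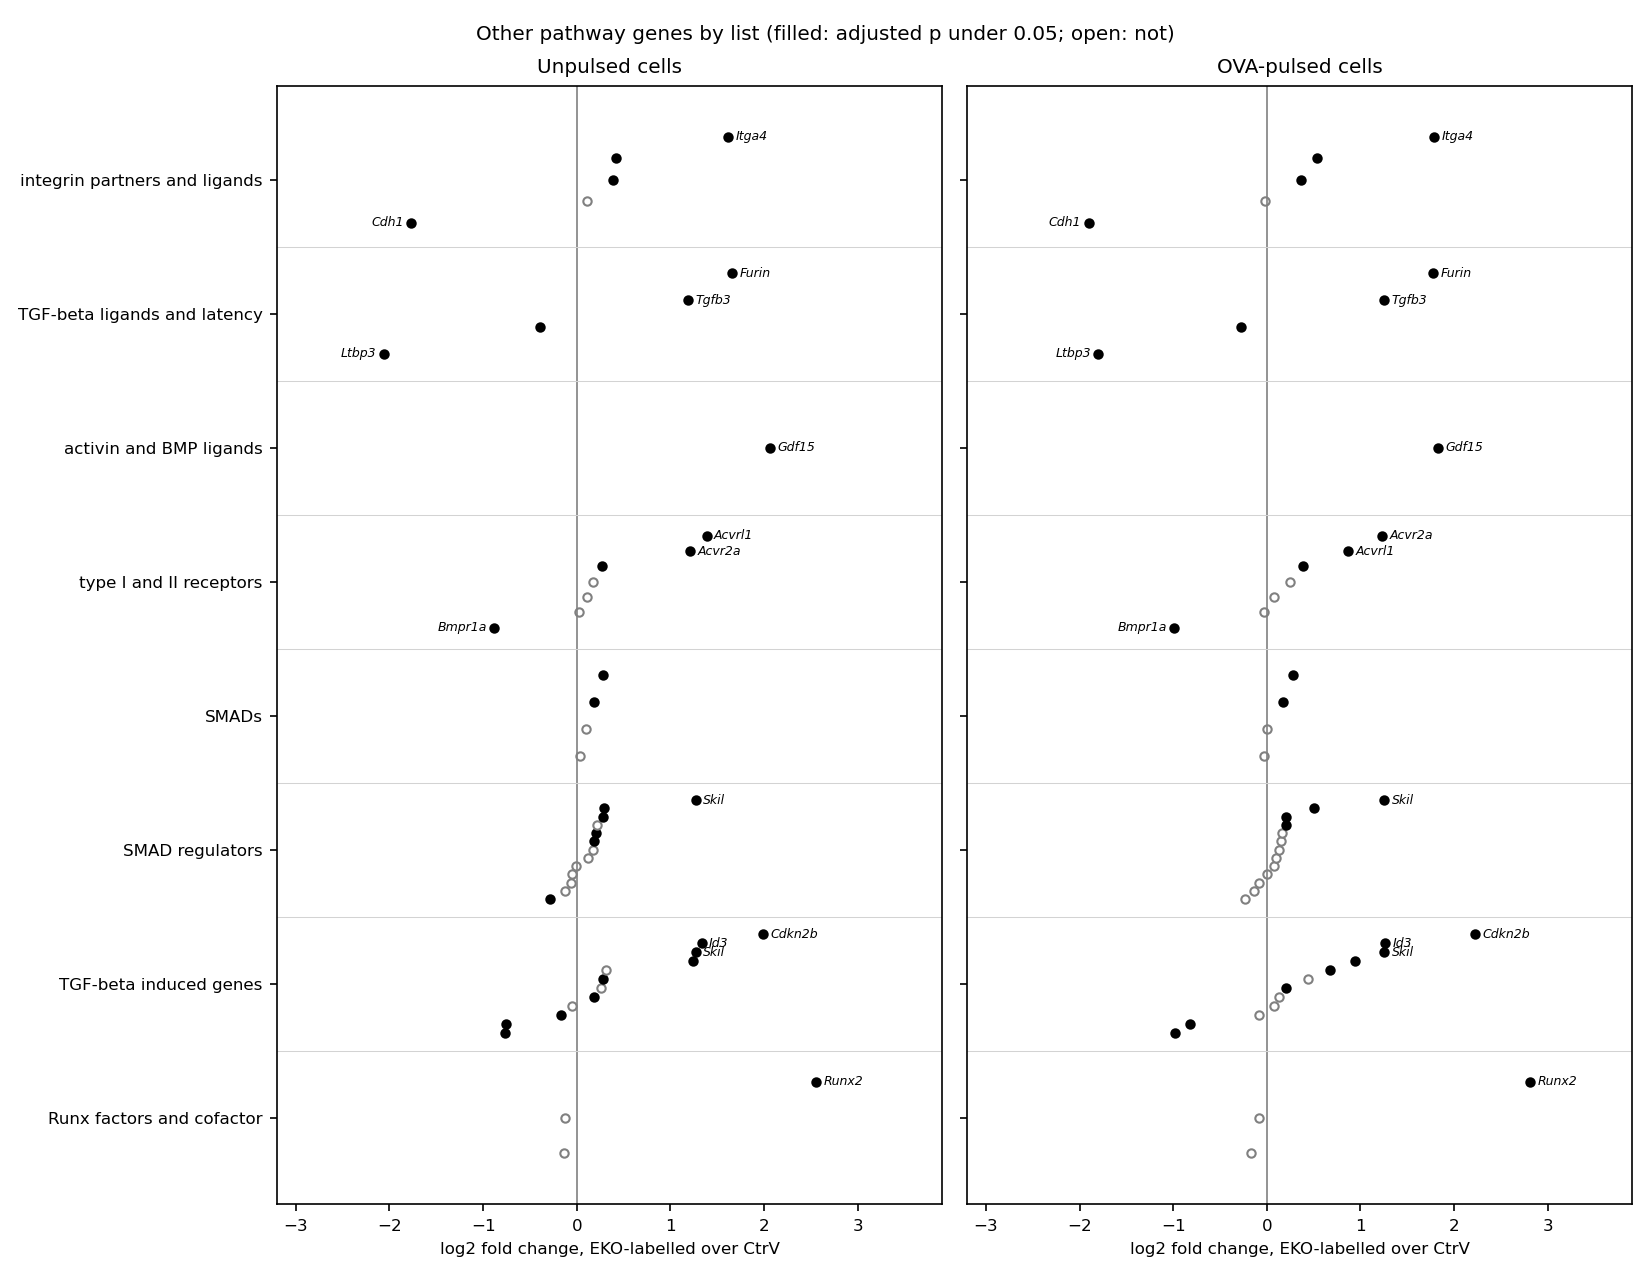
Log2 fold change of EKO-labelled over CtrV cells for the 45 listed pathway genes that passed the filter, by list, unpulsed on the left and OVA-pulsed on the right. Filled points had an edgeR adjusted p under 0.05 and open points did not, and a gene in several lists is drawn in each. Cdh1, Ltbp3 and Bmpr1a lay below 0 and Runx2, Cdkn2b, Gdf15, Itga4 and Furin above 1.5 in each treatment.

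The genes whose levels over the 12 libraries were most like those of Itgae were found by the distance between centred log2 CPM profiles among 12421 genes with a mean log2 CPM of at least 1. They were Rab37 (distance 0.823, Pearson's r 0.997), Alox15 (1.17, r 0.995), Klrb1f (1.71, r 0.986), Tbx21 (1.88, r 0.991) and Nod1 (2.22, r 0.995). Alox15, a lipoxygenase gene, had a mean of 1071 CPM in CtrV against 26.5 CPM in EKO-labelled libraries, and Tbx21, which encodes the transcription factor T-bet, had 64.3 and 2.02 CPM. For Inhba they were Nod1 (1.3, r 0.988), Gm12159 (1.34, r 0.995), Pdlim3 (1.35, r 0.989), Mamld1 (1.5, r 0.981) and Maged1 (1.58, r 0.979). The nearest, Nod1 and Gm12159, had means of 11.98 and 7.14 CPM in CtrV against 0.424 and 0.499 CPM in EKO-labelled libraries. Inhba had 0 to 4 reads in EKO-labelled libraries, so the prior count of 3 shrinks its log2 difference. Which genes come nearest to Inhba depends on that setting. The libraries fall into 2 lines, so these correlations mostly restate the line difference and carry no test.

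Within 250 kb of Itgae lay 25 genes, of which 11 passed the filter. By the test, 3 of them were lower in the EKO-labelled line in both treatments and 3 higher in both. These counts include Camkk1 and P2rx1, whose passage through the filter is given below. Of all genes tested, 47% were called in OVA-pulsed and 46.4% in unpulsed cells, each treatment taken singly and in either direction. The share called in both treatments was not computed, so nothing is read from the counts. Ctns was called lower after OVA, at a log2 fold change of -0.39 (edgeR adjusted p = 0.00056), and not unpulsed, at -0.16 (edgeR adjusted p = 0.064). Haspin, a kinase gene inside the span of Itgae, was lower by a log2 fold change of -0.44 unpulsed and -0.48 after OVA, and Ncbp3, the nearest gene outside it, by -0.37 and -0.42. Camkk1 and P2rx1, which encodes an ATP-gated channel, passed the filter only through the line in which they were high, with means of 1.99 CPM in CtrV against 0.546 CPM in EKO-labelled libraries for Camkk1 and of 0.580 against 3.68 CPM for P2rx1. P2rx5 and Atp2a3 were higher by 0.48 to 0.72. None of the 12 genes within 250 kb of Inhba passed the filter.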

How the data were processed

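RNA sequencing libraries of CtrV and EKO-labelled Sp37A3 cells, unpulsed or OVA-pulsed, were grouped by their labels. The file deposited by the authors holds whole read counts for each gene: reads were aligned to mm10 with STAR and counted on the exon union of Ensembl genes with featureCounts, with 1 location reported for reads that fitted several. Whether counting used the strand is not given in the sources used here. The counts carry no normalization or filter, and both were applied here. Symbols and positions came from a GENCODE annotation of GRCm38, which may differ from the gene model of the authors.

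Lines and treatments were compared with the quasi-likelihood test of edgeR 4.0.16 (R 4.3.3). All 12 libraries, scaled by TMM, entered 1 fit with group and replicate number as covariates, as the methods of the study name, and Benjamini-Hochberg adjustment over the 14079 tested genes. An adjusted p under 0.05 was called. Alternatives were DESeq2 1.42.0, limma 3.58.1 (voom), RLE and upper-quartile scaling, a bias-adjusted fit, other filters, no replicate block, the compared groups alone, EKO-labelled replicate 1 left out, and each library left out. Ratios of summed counts carry exact binomial 95% intervals. Likeness used log2 CPM with a prior count of 3.

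The pairing comes from the replicate numbers and the study's methods. Deviations of same-numbered OVA-pulsed libraries of the lines had correlations of 0.450, 0.295 and 0.298, those of unpulsed libraries 0.0664, -0.00915 and 0.271. Within a line, same-numbered unpulsed and OVA-pulsed libraries had correlations of 0.0893, 0.185 and 0.385 in CtrV cells. In EKO-labelled cells these were 0.711, 0.357 and 0.424. A line difference seen in both treatments is therefore not an independent repeat. No pair of libraries agreed within sampling noise.

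The members, gene lists and tests were chosen with earlier results of these data known. Named pathway genes are those called in both line comparisons in the same direction, up to the 3 with the largest mean change in each list, with direct partners of the members always named. Klf10, Id2 and Nrros were added after their values were seen. Genes most like Itgae and Inhba (5 each) and genes within 250 kb of them are descriptions.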

Additional observations from a re-analysis of the deposited data

How the results depend on the processing

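Of the 7 genes in the fit that were not chosen by their line difference, 3 or 4 were called between the lines under every alternative and with each library left out, in OVA-pulsed and in unpulsed cells. The number of members called was 0 for the OVA effects and the dependence on pulsing. No called fold change changed sign, a fold change that was not called being given no direction. Without the replicate block the members called, with Itgae and Inhba that were chosen for it, were 6 in OVA-pulsed and 5 in unpulsed cells, and the paired fit changed no call of a member other than that of Tgfbr1 in unpulsed cells. The calls lost were those of Tgfbr1 in unpulsed cells and Tgfb1 in OVA-pulsed cells, as given above, and the cause was not tested. The listed pathway genes called ranged from 21 to 30 and all genes called between the lines from 4747 to 6993. A minimum of 10 counts in every library removed Inhba, for which that setting gave no value. The median over all genes moved by at most 0.05 on the log2 scale under any scaling. Low counts limit what can be said of Smad3 and, in EKO-labelled cells, of Inhba.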
